A study of Homo sapiens with 15 samples.

Results

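Liver X receptors (LXRs) are nuclear receptors that bind oxysterols, which are oxidized forms of cholesterol, and switch on genes that carry cholesterol out of the cell. The 7 genes described here are the receptors NR1H3 (LXRα) and NR1H2 (LXRβ), the exporters ABCA1 and ABCG1, the ubiquitin ligase MYLIP (IDOL), the phospholipid enzyme LPCAT3 and the lipoprotein component APOE. They were taken by name from 22439 genes with a symbol on the array, and 8 of 58201 probes carry a RefSeq accession of 1 of them. The list was drawn up with the levels of these genes under the 3 compounds already known, so their differences from vehicle are given as a description. Calls of these genes in the 3 compound comparisons are counted below, but they are not a test of the genes.

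The arrays are single-dye Agilent human gene expression arrays of A2058, an established human melanoma cell line grown in EMEM with fetal bovine serum. The 5 groups, of 3 arrays each, are NP at 3 μM, MET (metformin) at 5000 μM, PHEN (phenformin) at 50 μM, DMSO and W (water), all harvested after 8 hours. NP is the name in the sample labels. The series title reads neopetasin and the study calls its compound at this dose petasin, so NP is kept here as a label. DMSO is the vehicle of NP, water is the vehicle of both biguanides, and the MET and PHEN comparisons share the 3 water arrays. The groups model 1 time point in 1 cell line, and the study's methods describe the arrays of a group as biological replicates.

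An LXR acts as a pair with a retinoid X receptor (RXR) on a DNA element called DR4, a repeat of AGGTCA with 4 bases between the copies. Without ligand the pair holds corepressors, and ligand exchanges them for coactivators. ABCA1 hands cholesterol and phospholipid to lipid-poor apolipoprotein A-I, ABCG1 hands cholesterol to more mature lipoprotein particles, and APOE is a protein that accepts lipid and is itself an LXR target. MYLIP marks lipoprotein receptors for degradation and so lowers cholesterol uptake, and LPCAT3 puts polyunsaturated fatty acids into membrane phospholipids. LXR activity in melanoma is best known for raising APOE.

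The ABCA1 promoter is shown because ABCA1 had the largest difference among the 7 genes and because its proximal DR4 element is the textbook LXR site. The sequence below is the gene's strand over the 250 bases before the RefSeq start of ABCA1, chr9:104928156-104928405 in GRCh38.p14, on the minus strand. Capitals mark the closest match to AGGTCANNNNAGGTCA on either strand.

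ABCA1 promoter: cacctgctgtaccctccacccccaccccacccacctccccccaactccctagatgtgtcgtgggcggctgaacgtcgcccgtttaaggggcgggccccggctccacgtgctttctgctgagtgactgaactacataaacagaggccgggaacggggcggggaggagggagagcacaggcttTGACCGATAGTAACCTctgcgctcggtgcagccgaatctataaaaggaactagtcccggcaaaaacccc

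The match lies at chr9:104928209-104928224, from base -69 to base -54 counted from the start, and reads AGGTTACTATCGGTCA on the opposite strand, with 2 mismatches to the motif. Of 35116 promoter windows of this kind, which run from 250 bases before to 50 bases after a start, 2.34% hold a match with at most 2 mismatches. The windows of APOE, LPCAT3, MYLIP, NR1H2 and NR1H3 came no closer than 4 mismatches. For SREBF1, an LXR target outside the 7, the only window searched, around the start at chr17:17836986, came no closer than 5. Any other start of SREBF1 was not searched. No window was available for ABCG1, and sites outside the windows were not searched for any gene. The ABCA1 window also holds the E-box CACGTG, found in 7.26% of windows on either strand, and 1 of the 4 NR1H3 windows holds the single half-site AGGTCA, found in 13.8%. The element TGATGNAA of ATF4 and C/EBP factors, found in 3.62% of windows, was in none of these. A match of letters is a description of the window and does not show binding.

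Each level is a log2 intensity with the log2 of the array's 75th percentile subtracted, so that a value of 0 is the brightness at that percentile, and levels of different probes cannot be set against each other. A probe is called detected where the extraction software marked it as well above background. The number of detected probes ran from 25799 to 31925 on the DMSO and NP arrays and from 31407 to 45007 on the W, MET and PHEN arrays, with no saturated spot. DMSO and NP arrays lay on 1 pair of slides and W, MET and PHEN arrays on another, so vehicle and slide cannot be told apart. Replicate 3 of every group lay on a different slide from replicates 1 and 2. Of 10 melanocyte lineage markers, 9 were detected on all 15 arrays and TYR on 13. MLANA, TYRP1 and TYR were dim, with median levels of -1.03, -1.56 and -2.63. The 10 probes summed to 112 to 131 times the 75th percentile on the DMSO arrays and to 105 to 128 times on the NP arrays. Of the 4 macrophage markers on the array, PTPRC, CD14 and CSF1R were detected on all 15 arrays and CD163 on 1. The 4 macrophage probes summed to 0.829 to 0.956 times the 75th percentile on the DMSO arrays and to 0.739 to 0.941 times on the NP arrays. Their sums were 0.766 to 0.939 times on the W arrays, 0.682 to 1.07 on the MET arrays and 0.632 to 0.798 on the PHEN arrays. Of 4 fibroblast markers, COL1A1 and LUM were detected on all 15 arrays, DCN on 12 and COL1A2 on 2. SERPINA1, of 4 hepatocyte markers, and KRT14, of 3 keratinocyte markers, were also detected on all 15.

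ABCA1 (chr9:104781006-104928155) was dim on these arrays and was brightest in the NP group. On its brighter probe, A_24_P235429, the levels were -5.69, -5.71 and -4.35 on the DMSO arrays, in the order of replicates 1, 2 and 3. On the NP arrays they were -3.49, -2.63 and -1.88. Every NP array lay above every DMSO array, and the probe was detected on 3 of 3 NP arrays and 0 of 3 DMSO arrays. Because DMSO gives only an upper limit, the difference is a bound: the mean of the NP arrays was at least 2.13-fold above the dimmest signal called well above background on the DMSO arrays, averaged over the 3 arrays on the log2 scale. The fitted difference, which uses DMSO levels that were not well above background, was 2.58 (SE 0.50). The 3 pairs of arrays with the same replicate number differed by 2.20, 3.07 and 2.47. By the fitted difference ABCA1 was second of the 26824 genes and unnamed transcripts fitted, which is the quantity it was chosen on. It entered the fit only because it was detected in the NP group. In bulk RNA, fewer cells with a transcript and less of it per cell cannot be told apart.

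With the biguanides ABCA1 overlapped its vehicle. The levels were -3.94, -4.74 and -4.34 on the W arrays, -3.13, -4.90 and -4.26 on the MET arrays and -4.22, -4.43 and -4.70 on the PHEN arrays. The probe was detected on 2 of 3 W, 1 of 3 MET and 1 of 3 PHEN arrays, and the 3 groups overlapped. The fitted difference from W was 0.24 (SE 0.50) for MET, higher in 2 of 3 pairs. For PHEN it was -0.11 (SE 0.50), higher in 1 of 3 pairs, and 0.37 with quantile normalization. In order of mean level the groups ran NP (-2.67 ± 0.81, SD, n = 3), MET (-4.10 ± 0.90), W (-4.34 ± 0.40), PHEN (-4.45 ± 0.24) and DMSO (-5.25 ± 0.78). MET, W and PHEN, neighbours in this order, differed by less than their SDs.

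The size of the ABCA1 difference depended on how the dim signal was treated. Processed signals of this probe ran from 4.56 to 39.6 intensity units over the 15 arrays. With normexp background correction, which adds an offset that compresses dim probes, the NP difference was 0.48, and in the authors' normalized table, which sets low values to a floor of 4, it was 1.19. For this probe 11 of 15 arrays are at that floor, all 3 DMSO and all 3 W arrays among them. Leaving out each replicate number in turn gave 2.34 to 2.77. On NP replicate 2, the array with the 3.07 pair, the detection limit reported by the software was marked as outside its expected range, and the difference without replicate 2 was 2.34.

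The second ABCA1 probe, A_33_P3422897, was detected on 1 of 15 arrays, MET replicate 1. Its levels were -5.95, -5.77 and -5.39 with DMSO and -4.24, -5.13 and -4.10 with NP. The NP arrays again lay above the DMSO arrays, but neither group was above background, so no fold is given. All 15 arrays are at the floor for this probe in the authors' table.

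**Figure D1:**
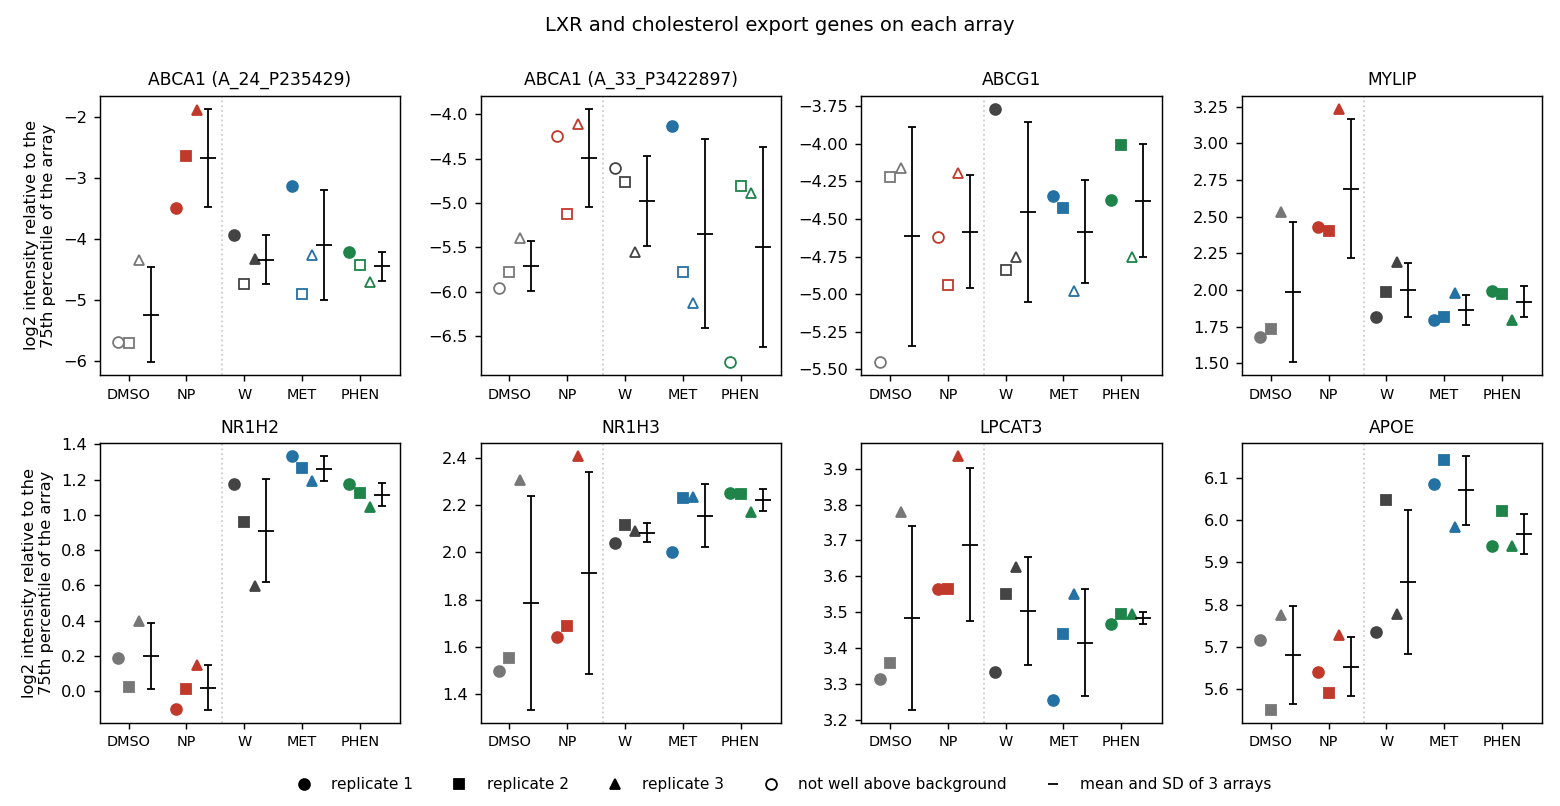
Levels of the 8 probes of the 7 genes on each of the 15 arrays (vertical axes, log2 intensity minus the log2 75th percentile of each array; axes differ between panels). Horizontal positions are the 5 groups, symbols are replicates, open symbols are arrays on which the probe was not well above background, bars are the mean and SD of 3 arrays, and the dotted line parts the slide sets. NP arrays of ABCA1 probe A_24_P235429 lie between -3.49 and -1.88 and DMSO arrays between -5.71 and -4.35.

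ABCG1 (chr21:42199689-42297244), the partner exporter, was at or near background. The levels of its probe A_23_P166297 ran from -5.45 to -3.77 over the 15 arrays, with overlap among all 5 groups. The probe was detected on 0 DMSO, 0 NP, 1 W, 2 MET and 2 PHEN arrays. No group had it detected on all 3 arrays, so it did not enter the fit and no fold is given, and 14 of 15 arrays are at the floor in the authors' table. ABCG1 is known as an LXR target in macrophages. Differences below the detection limit were not measurable for it.

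MYLIP (chr6:16129086-16163887) was detected on 15 of 15 arrays and was higher with NP than with DMSO by nearly the same amount in each pair. The levels were 1.68, 1.74 and 2.53 with DMSO and 2.43, 2.40 and 3.24 with NP. The groups overlapped, because replicate 3, on its own slide, was the highest array of both groups. Compared within pairs, which share a slide, the differences were 0.75 and 0.67 on the first slide and 0.70 on the second. The SD of the 3 pairs was 0.04. The fitted difference was 0.71, which is 1.63-fold, with an SE of 0.20 from the fit to all 15 arrays. It kept its sign in 16 of 16 alternative settings and ranged from 0.65 to 0.73. By the fitted difference MYLIP was at rank 764 of 26824.

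With the biguanides MYLIP stayed close to W. Its levels were 1.82, 1.99 and 2.19 with W, 1.79, 1.82 and 1.98 with MET and 1.99, 1.97 and 1.80 with PHEN. The difference from W was -0.14 (SE 0.20) for MET, lower in 3 of 3 pairs, and -0.08 (SE 0.20) for PHEN, lower in 2 of 3 pairs. The groups overlapped in both comparisons. In order of mean level the groups ran NP (2.69 ± 0.47, SD, n = 3), W (2.00 ± 0.19), DMSO (1.98 ± 0.48), PHEN (1.92 ± 0.11) and MET (1.86 ± 0.10), and the last 4 differed from their neighbours by less than their SDs.

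LPCAT3 (chr12:6976185-7018476) was slightly higher with NP in each pair. Its levels were 3.31, 3.36 and 3.78 with DMSO and 3.56, 3.57 and 3.94 with NP, overlapping groups in which replicate 3 was again the highest. The pairs differed by 0.25, 0.21 and 0.16, and the fitted difference was 0.20 (SE 0.11), under the 1.5-fold threshold used for a call. With W the levels were 3.33, 3.55 and 3.62, with MET 3.25, 3.44 and 3.55 and with PHEN 3.47, 3.49 and 3.49. The difference from W was -0.09 for MET, lower in 3 of 3 pairs, and -0.02 for PHEN, lower in 2 of 3 pairs. NP had the highest mean (3.69 ± 0.21, SD, n = 3), followed by W (3.50 ± 0.15), PHEN (3.48 ± 0.02), DMSO (3.48 ± 0.26) and MET (3.41 ± 0.15). Each step in this order was smaller than the larger SD of the pair of neighbours.

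APOE (chr19:44905796-44909393), the LXR target best known in melanoma, was at nearly the same level with NP as with DMSO. The levels were 5.72, 5.55 and 5.78 with DMSO and 5.64, 5.59 and 5.73 with NP, and the pairs differed by -0.08, 0.04 and -0.05. The fitted difference was -0.03 (SE 0.11), with a range of -0.06 to 0.00 over 16 alternative settings. The levels were 5.73, 6.05 and 5.78 with W, 6.08, 6.14 and 5.98 with MET and 5.94, 6.02 and 5.94 with PHEN. MET was above W in 3 of 3 pairs, by 0.22 (SE 0.11), and PHEN in 2 of 3, by 0.11 (SE 0.11). The groups overlapped. In order of mean level they ran MET (6.07 ± 0.08, SD, n = 3), PHEN (5.97 ± 0.05), W (5.85 ± 0.17), DMSO (5.68 ± 0.12) and NP (5.65 ± 0.07). PHEN differed from W, and DMSO from NP, by less than the larger SD of the 2 groups. The signal of this probe ran from 7717 to 18244 intensity units.

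The receptors showed small differences from vehicle. NR1H3 (chr11:47248300-47269033) had levels of 1.498, 1.55 and 2.31 with DMSO, 1.64, 1.69 and 2.41 with NP, 2.04, 2.12 and 2.09 with W, 2.00, 2.23 and 2.23 with MET and 2.25, 2.24 and 2.17 with PHEN. It was above its vehicle in 3 of 3 pairs with NP, by 0.13 (SE 0.19), in 2 of 3 with MET, by 0.07, and in 3 of 3 with PHEN, by 0.14. The PHEN arrays lay above the W arrays without overlap, and the NP arrays overlapped the DMSO arrays. In both DMSO and NP, replicate 3 stood above the other 2 by more than any group differed from its vehicle. In order of mean level the groups ran PHEN (2.22 ± 0.05, SD, n = 3), MET (2.16 ± 0.13), W (2.08 ± 0.04), NP (1.91 ± 0.43) and DMSO (1.79 ± 0.45), and each step was smaller than the larger SD of the neighbours.

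NR1H2 (chr19:50376457-50383388) had levels of 0.18, 0.02 and 0.40 with DMSO and -0.10, 0.01 and 0.15 with NP. NP was lower in 3 of 3 pairs, which differed by -0.29, -0.01 and -0.25, and the fitted difference was -0.18 (SE 0.15) with overlapping groups. The levels were 1.17, 0.96 and 0.59 with W, 1.33, 1.27 and 1.19 with MET and 1.18, 1.12 and 1.05 with PHEN. MET lay above W in every array, by 0.35 (SE 0.15), and PHEN was above W in 3 of 3 pairs, by 0.20 (SE 0.15), with overlap. In order of mean level the groups ran MET (1.26 ± 0.07, SD, n = 3), PHEN (1.11 ± 0.07), W (0.91 ± 0.29), DMSO (0.20 ± 0.19) and NP (0.02 ± 0.13). PHEN differed from W, and DMSO from NP, by less than the larger SD of the 2 groups. The MET, PHEN and W arrays all lay above the DMSO and NP arrays, so that set against DMSO in place of W the difference of MET is 1.06 and that of PHEN 0.91.

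With NP, 0 of the 6 fitted members were called, which means at least 1.5-fold at an adjusted p of at most 0.05 in limma, where 0.0373% of the 26824 features (10, all higher) were called. A fit with a slide term called ABCA1 and MYLIP, among 63 features called. ABCA1 was called with the replicate number within each slide set (52 features called) and with slide as a random block (64). These calls are not a test of the 2 genes, which were chosen on this contrast, and ABCA1 passed the detection filter only through the NP group. The counts were 0 of 6 for MET, where 0% of features were called (659 at an unadjusted p of at most 0.05), and 0 of 6 for PHEN, where 0.0261% were called. Under NP, 4 of the 6 members were above DMSO in all 3 pairs, ABCA1, MYLIP, LPCAT3 and NR1H3, beside 14.3% of features, and 1 was below in all 3, NR1H2, beside 18.9%. ABCA1 and MYLIP were past 1.5-fold in all 3 pairs, beside 0.483% of features, and ABCA1 was the only member whose groups did not overlap, beside 3.02%. Under MET, 2 members were above W in all 3 pairs, NR1H2 and APOE, beside 22.2%, and 2 were below, MYLIP and LPCAT3, beside 20.3%. The MET groups did not overlap in NR1H2, beside 3.48%. Under PHEN, 2 were above, NR1H2 and NR1H3, beside 12.2%, and 0 below, beside 14.8%. The PHEN groups did not overlap in NR1H3, beside 3.83%. The median difference of the 6 members was 0.17 with NP, 0.14 with MET and 0.05 with PHEN, beside -0.01, 0.00 and -0.03 over all features. These contrasts are those the genes were chosen on, and the counts are a description.

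**Figure D2:**
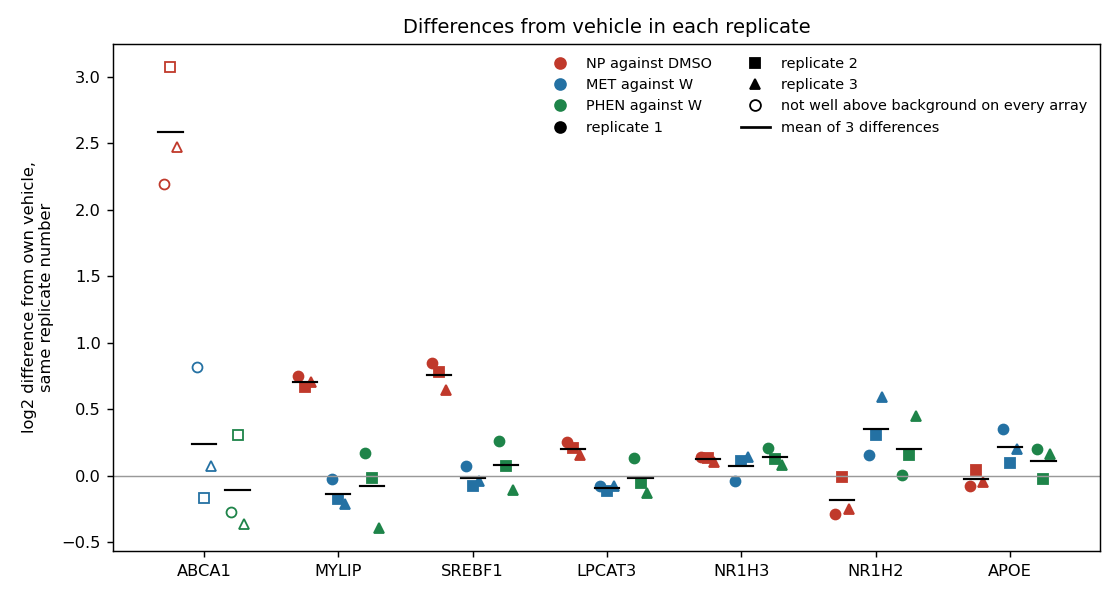
Difference between a treated array and the vehicle array with the same replicate number (vertical axis, log2) for the 6 fitted genes and SREBF1, with NP against DMSO, MET against W and PHEN against W side by side. Symbols are replicates and bars are the mean of 3 pairs. All ABCA1 symbols are open, because its probe was not well above background on every array. ABCA1 lies between 2.20 and 3.07 with NP, MYLIP between 0.67 and 0.75 and SREBF1 between 0.64 and 0.85, with the biguanide pairs of MYLIP on both sides of 0.

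Other genes that LXRs are known to drive were taken from a list of 20, of which 17 entered the fit. With NP 0 of them were called in limma, and 4 had an unadjusted p of at most 0.05, beside 1257 of all 26824 features. The list was drawn up with earlier results of these data known, so this count is a description. Of the 17, 6 were above and 11 below 0, and their median difference was -0.05 beside -0.01 over all features. The largest positive difference was that of SREBF1, which codes for the transcription factor that drives fatty acid synthesis genes. On its brighter probe, A_23_P129786, the levels were 5.67, 5.62 and 6.28 with DMSO and 6.51, 6.39 and 6.92 with NP. The NP arrays all lay above the DMSO arrays, and the pairs differed by 0.85, 0.78 and 0.64. The fitted difference was 0.76 (SE 0.13), with an adjusted p of 0.13 in limma. It was called with a slide term (adjusted p 0.0165), with the replicate number within each slide set (0.0233), with normexp correction (0.0176) and with slide as a random block (0.0167), while the adjusted p over the other limma settings ran from 0.052 to 1.

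SREBF1 has a second probe, A_33_P3222139, and it did not show the difference. Its levels were -0.21, -0.25 and 1.18 with DMSO and -0.09, 0.03 and 0.94 with NP, so that the pairs differed by 0.12, 0.28 and -0.23. Both probes were detected on all 15 arrays and carry the same RefSeq accession. With the mean of both probes the difference was 0.41. With the biguanides the brighter probe differed from W by -0.02 for MET and 0.08 for PHEN, each with an adjusted p of 1.

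**Figure D3:**
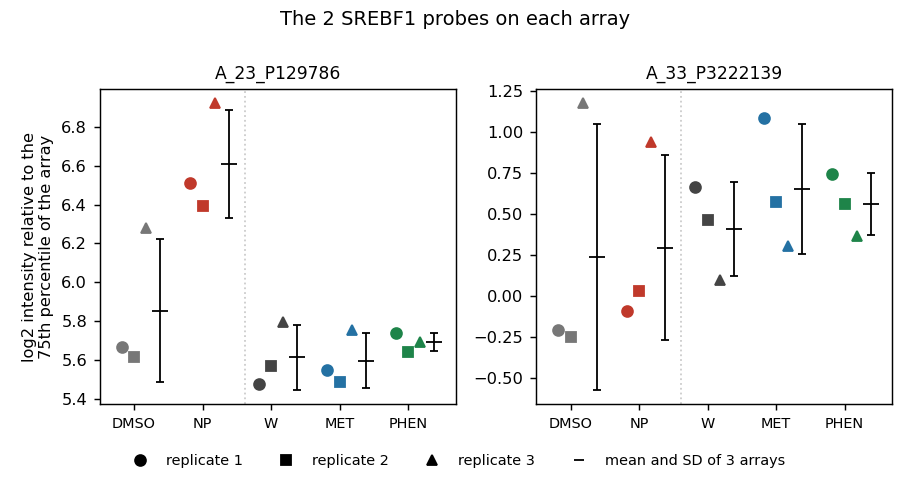
Levels of both SREBF1 probes on the 15 arrays (vertical axes, log2 intensity minus the log2 75th percentile of each array; axes differ between panels), with the mean and SD of 3 arrays per group. On A_23_P129786 the NP arrays lie between 6.39 and 6.92 and the DMSO arrays between 5.62 and 6.28, and on A_33_P3222139 both groups overlap.

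The other targets differed less from vehicle. After SREBF1, TTC39B, a protein that promotes turnover of LXR, had the largest positive difference under NP, 0.47 (adjusted p 0.716), and LPL, lipoprotein lipase, differed by 0.30 (adjusted p 0.852). The exporter ABCG4 was lowest at -0.50, a dim probe detected on 10 arrays. ABCG5, a sterol exporter of liver and intestine, was detected on all 15 arrays and differed by -0.48 under NP. Its pairs differed by -0.01, -0.83 and -0.62. TTC39B, LPL and ABCG4, and ABCG5 under NP, fall outside the rule for named genes. Under the biguanides 0 of 17 were called. At an unadjusted p of at most 0.05, MET had 2 and PHEN 1, beside 659 and 631 of 26824 features. Under the biguanides ABCG5 was the largest difference among those detected on all arrays, at -0.35 with MET and -0.31 with PHEN. Each had an adjusted p of 1, and ABCG5 was lower in 3 of 3 pairs with each. The list medians were -0.05 for MET and 0.02 for PHEN.

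No partner of LXR passed the test against vehicle. Of 17 genes for RXRs, corepressors and coactivators, all fitted, 0 were called with NP, MET or PHEN in limma. In that order 0, 1 and 1 had an unadjusted p of at most 0.05, beside 1257, 659 and 631 of 26824 features. The medians were -0.01, 0.01 and 0.03 in that order. TBL1X, a corepressor subunit, was the largest change of a gene detected on all arrays with NP, at 0.30, and with PHEN, at 0.29. RXRB was the largest with MET, at 0.29, and each of these had an adjusted p of 1.

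Genes that move cholesterol inside the cell or onto lipoproteins were also at 0 of 20 called with each compound. At an unadjusted p of at most 0.05 there were 1, 0 and 0 for NP, MET and PHEN. Over all 26824 features those counts were 1257, 659 and 631. The medians of the 20 genes were 0.00, 0.00 and 0.01 in the same order. The largest difference under NP was that of APOA1, the lipid acceptor for ABCA1, at -1.23 (SE 0.55, adjusted p 1). It rested on 1 array, DMSO replicate 2 at -0.02, beside -2.86 and -2.07 on the other DMSO arrays and -2.62, -3.20 and -2.83 with NP. NCEH1, a cholesteryl ester hydrolase, differed by -0.15 with PHEN, and APOA1 by 0.38 with MET. Of the 8 enzymes that make or clear oxysterols, the ligands of LXR, 5 were fitted and 0 were called with each compound, also at an unadjusted p of at most 0.05. HSD3B7, an enzyme of bile acid synthesis, differed by 0.14 with MET and 0.18 with PHEN.

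**Figure D4:**
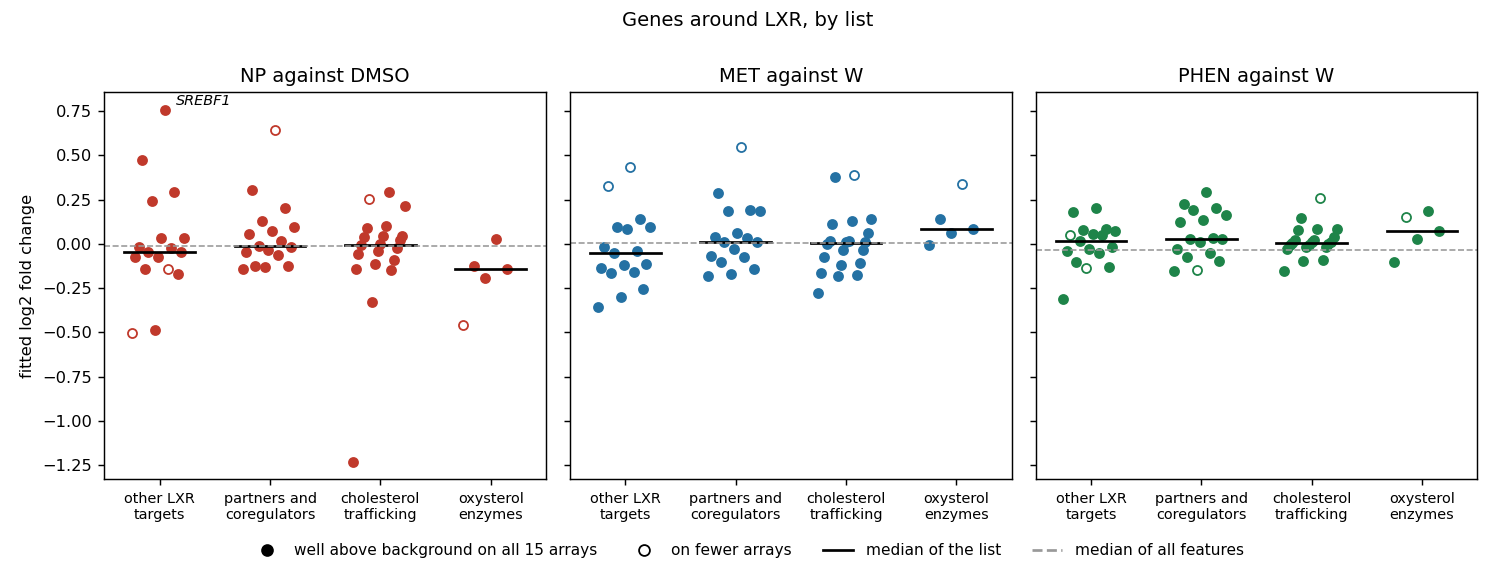
Fitted log2 difference from vehicle of the genes in 4 lists around LXR (vertical axis), with a panel for each compound. Points are genes, open where the probe was not well above background on all 15 arrays, solid bars are list medians and dashed lines are the median of all features. SREBF1 lies highest of the LXR targets with NP, at 0.76, and APOA1 lowest of the trafficking genes, at -1.23.

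The vehicles were compared because this contrast was not used to choose the genes. DMSO arrays were below W arrays in NR1H2 by 0.71 (SE 0.15, adjusted p 0.0151 in limma), without overlap. It was the 1 member called of the 6 fitted, in a comparison where 10.6% of features were called and 7.79% were called lower, and 20.4% had all DMSO arrays below all W arrays. The replicate numbers do not pair arrays across the vehicles. Without the replicate block the adjusted p was 0.0147, but it was 0.0871 with slide as a random block and 0.263 with only DMSO and W arrays in the fit. In that last fit 0 of all 26822 features were called. Leaving out replicate 1 gave -0.57 (adjusted p 0.192) and leaving out replicate 2 gave -0.59 (adjusted p 0.225). Since DMSO and W arrays lay on different slides, vehicle and slide cannot be told apart.

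For the other 5 members the vehicles did not pass the test. The difference of DMSO from W was -0.91 for ABCA1 (adjusted p 0.233), with 0 of 3 DMSO and 2 of 3 W arrays detected. The difference turned positive with normexp correction, at 0.15, and with quantile normalization, at 0.04. The other differences were -0.30 for NR1H3 (adjusted p 0.307), -0.17 for APOE (0.309), -0.02 for LPCAT3 (0.925) and -0.02 for MYLIP (0.966). The median over all features was itself -0.12, and it was -0.01 with quantile normalization and 0.02 with normexp correction.

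Between the vehicles 10.6% of all features were called, 7.79% lower and 2.81% higher with DMSO. Around LXR, the calls were 1 of 17 other targets, 4 of 17 partners, 1 of 20 trafficking genes and 0 of 5 oxysterol enzymes. PLTP, the phospholipid transfer protein, was lower with DMSO by 0.62 (adjusted p 0.00403), with 1.43, 1.44 and 1.32 against 2.06, 2.07 and 1.91 with W. The 4 partners called, all coactivators, were higher with DMSO, where 2.81% of features were called higher. On the list of 17 partners, 8 were above 0 and 9 below, with a median of -0.17 beside -0.12 over all features. Coactivators lay on both sides of 0. EP300 differed by 1.30 (adjusted p 0.00676), NCOA6 by 0.60 (adjusted p 0.00724), CREBBP by 0.66 (adjusted p 0.0425) and NCOA1 by 0.68 (adjusted p 0.0433). NCOA1 falls outside the rule for named genes and was named after its value was seen. ABCA5, a lipid transporter, was higher by 0.78 (adjusted p 0.00867). With only DMSO and W arrays in the fit 0 of these 6 genes were called. In that fit 0 of all 26822 features were called, so the count cannot tell these genes from others.

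The pattern of ABCA1 was compared with that of 13864 named genes detected on all 15 arrays, over the 9 differences of a treated array from its vehicle array. The 5 most like it were TPTE2P6 (Pearson r = 0.924), NOSTRIN (0.922), a SNORD116 small nucleolar RNA (0.917), SLC22A15 (0.910) and SREBF1 (0.910). For 7 of the 9 ABCA1 differences at least 1 of the 2 arrays was not well above background, so that these r values rest mostly on unmeasured ABCA1 levels. The differences are those the genes were chosen on, share vehicle arrays and are dominated by the gap between the 3 NP points and the other 6. For NOSTRIN the fitted NP difference was 0.49, for SLC22A15 it was 0.78 and for TPTE2P6 0.20, with adjusted p of 0.704, 0.14 and 1. Done in the same way after its values were seen, MYLIP was most like S100P (0.994) and SREBF1 (0.984).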

How the data were processed

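The authors hybridized RNA of A2058 cells to single-dye Agilent arrays and extracted spots with Agilent Feature Extraction, version 10.7.3.1 in the file headers and 9.1 in the submitters' processing notes. The deposited intensity values are background-subtracted and not normalized between arrays. The authors also deposited log2 values after 75th-percentile normalization, none below a floor of 4, which lie 7.85 to 7.87 above the scanner-derived levels used here. These were used as an alternative, and between 31.3% and 50.8% of them on an array are at the floor.

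Intensities were processed with limma 3.58.1 and statmod 1.5.0 under R 4.3.3, and with numpy 2.4.6, pandas 2.3.3 and matplotlib 3.10.9 under Python 3.11.15. After dropping control spots and treating values on outlier spots as missing, each array was scaled by its 75th percentile on the log2 scale. The detection filter kept 32912 of 58201 probes, those marked well above background throughout at least 1 group. A gene was represented by its brightest such probe and needed a value on at least 8 arrays, which gave 26824 features, 16584 of them with a symbol. Of the 402360 values of these features, 223 were missing. Of 33080 probes with a RefSeq accession, 31104 matched a current symbol. Promoters and gene positions are those of RefSeq in GRCh38.p14.

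The groups and the replicate number (as a block) were terms of 1 limma fit to all 15 arrays. Tests were two-sided with eBayes and adjusted after Benjamini-Hochberg over all features. The block was shared by both vehicle sets, so a fitted SE is not the spread of the 3 pairs of a comparison. The replicate block within each slide set, run as an alternative, gave 52 calls for NP in place of 10. A call needed 1.5-fold (log2 0.585) and an adjusted p of at most 0.05. Same-numbered arrays deviated together within each vehicle set (r from 0.24 to 0.86) and not across the vehicles (r from -0.19 to -0.02). The fit was checked on simulated data. The members and lists were chosen with earlier results of these data known. Named genes were the members, up to 3 called genes per list and comparison, the largest difference per list and compound among probes detected on all arrays, the 5 genes most like ABCA1, and genes said to be outside this rule. For the oxysterol enzymes under NP the gene of this rule is not reported here. Of the paired comparison that the study's methods describe, a t-test with and without adjustment was run as an alternative. MET and PHEN had different doses and were not compared with each other. The 3 arrays per group limit the precision.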

Additional observations from a re-analysis of the deposited data

How the results depend on the processing

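The differences of MYLIP, LPCAT3 and NR1H3 from DMSO under NP stayed positive and that of NR1H2 negative in 16 of 16 alternatives, and that of ABCA1 positive in 15 of 15. Of the values of the 6 fitted members and SREBF1, 404 kept direction and call where tested, or moved by less than 1 SD where not tested. Another 14 untested values moved further. Of the tested values 6 lost and 5 gained a call and 11 turned direction. Untested values were sorted by the size of the move alone, and those that turned sign are given below. Members called under NP numbered 2 (ABCA1 and MYLIP) with a slide term and with the methods' t-test at an unadjusted p. They numbered 1 (ABCA1) with the replicate block within each slide set and with slide as a random block. The members were chosen on this contrast, so these counts are a description and not a test. Genes called for NP, 10 as reported, were 3 with no replicate block, 63 with a slide term, 52 with the replicate block within each slide set, 64 with slide as a random block, 26 with normexp, 17 with quantile normalization, 26 among probes detected on all 15 arrays, 0 with no filter on dim probes, 0 with the 2 groups only, and 214 by the methods' t-test (0 adjusted). For MET (0) they were 2 with a slide term, 2 with the block within slide sets, 2 with normexp, 4 with slide as a random block and 124 by the t-test. For PHEN (7) they were 0 with no replicate block, 16 with a slide term, 13 with slide as a random block, 0 with no filter, 0 with the 2 groups only and 168 by the t-test (0 adjusted). For DMSO against W (2843) they were 1202 with normexp, 1633 among probes detected on all arrays, 0 with the 2 groups only, 454 with slide as a random block and 1462 by the t-test (3 adjusted). Without 1 replicate number, calls ranged from 0 to 0 for NP and PHEN and from 0 to 5056 for DMSO against W, with 0 without replicate 1 or 2. Other LXR targets called were 1 (SREBF1) under NP with a slide term, the block within slide sets, normexp, slide as a random block or the t-test. Between the vehicles (1) they were 2 among probes detected on all arrays, 0 with normexp, the 2 groups only or the adjusted t-test, and 0 to 3 without 1 replicate. Partners called between the vehicles (4) were 2 with normexp, no filter or the t-test, 1 with slide as a random block, 0 with the 2 groups only or the adjusted t-test and 0 to 4 without 1 replicate. Trafficking genes (1) were 2 with the mean of probes, 0 with slide as a random block, the 2 groups only or either t-test, and 0 to 1 without 1 replicate. The slide term and the block within slide sets cannot give DMSO against W, because each vehicle has its own slides. Direction turned in DMSO against W for ABCA1 (0.152 with normexp, 0.042 with quantile normalization), LPCAT3 (0.025 with quantile normalization, 0.016 with slide as a random block, -0.105 to 0.068 without 1 replicate) and MYLIP (0.077 with slide as a random block, -0.194 to 0.102 without 1 replicate), and for SREBF1 under MET (0.114 with the mean of probes, -0.060 to 0.015 without 1 replicate) and PHEN (-0.014 to 0.170 without 1 replicate). In the compound comparisons of the members, which were not tested, 8 of 284 values turned sign: ABCA1 under MET (-0.05 without replicate 1) and PHEN (0.37 with quantile normalization, 0.10 with normexp, 0.02 without replicate 3), MYLIP under PHEN (0.08 without replicate 3), and LPCAT3 under PHEN and APOE under NP, each within 0.04 of 0. The difference of ABCA1 between the vehicles in the authors' table has no value, because all 6 arrays are at its floor. The t-test at an unadjusted p is the methods' own threshold. The cause of these differences was not tested. Signal over background limits ABCA1 and ABCG1, and the SREBF1 alternatives were added after the data were seen.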
